A study of Homo sapiens with 18 samples.

Results

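The genes described are 10 MAP kinase phosphatases of the dual-specificity (DUSP) family: DUSP1, DUSP2, DUSP4, DUSP5, DUSP6, DUSP7, DUSP8, DUSP10, DUSP14 and DUSP16. They were taken by symbol from the 26485 gene symbols of an RNAseq count table of SW620 cells, a human colon cancer line, and all 10 were among the 12832 genes with enough reads to be tested. Cells had been transfected with a scramble siRNA (a control with no intended target) or with siRNA against Lonp1, the mitochondrial protease (siLonp1). The cells stayed at 37 °C (Ctrl), were heated to 42 °C for 1 h (HS, heat shock), or were heated in the same way and given 1 h of recovery at 37 °C (HS+REC). Every condition and siRNA had 3 libraries, described by the study as independent biological replicates, so that there were 18 libraries in 6 groups. The knock-down was by siRNA in a cell pool of a single line, with no clone and no second line, and the sources used here do not say which of the Lonp1 siRNAs went into RNAseq.

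MAP kinases (ERK, JNK and p38) become active when a MAP kinase kinase adds phosphate to a threonine and a tyrosine of their activation loop. The phosphatases of this family remove both phosphates and switch the kinase off. Several of them are themselves transcribed when the kinase is active, so that they form a negative feedback loop, and heat and other stresses are known inducers of DUSP1. They are usually grouped by where they act and on what. DUSP1, DUSP2, DUSP4 and DUSP5 are nuclear and inducible, DUSP6 and DUSP7 are cytoplasmic and act on ERK, and DUSP8, DUSP10 and DUSP16 prefer JNK and p38. DUSP14 is a small, atypical member that lacks the domain by which the others dock on MAP kinases.

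The libraries held between 30815860 and 47279297 counts, and levels are given as CPM, the count of a gene scaled to a common, TMM-adjusted library size. Every group had at least 45 counts per library for each member other than DUSP10, which had between 8 and 51. LONP1 itself fell from 221 ± 5.56 CPM (Ctrl scramble) to 20.4 ± 1.75 CPM (Ctrl siLonp1; SD, n = 3), so the silencing showed in the libraries labelled for it. It was also lower by siLonp1 in HS (11.7 ± 0.154 against 214 ± 15.7 CPM) and in HS+REC (27.2 ± 1.64 against 218 ± 18.7 CPM). The epithelial markers EPCAM, CDH1, VIL1, KRT8 and KRT18 were each at 84.4 CPM or more in every library, whereas CDX2 (9.64 to 32.1 CPM), CDH17 (0.918 to 13) and KRT20 (0.256 to 1.21) were low. Of the 7 markers of other cell types, COL3A1 had no count, and PTPRC, CD3E and DCN had at most 3, 2 and 7 counts in any library. The summed level of these markers, nearly all of it COL1A1, was 9.49 to 11.6 CPM in Ctrl scramble, 10.1 to 11.6 in Ctrl siLonp1, 16.4 to 21.1 in HS scramble, 13.7 to 19.3 in HS siLonp1, 30.3 to 31.5 in HS+REC scramble and 31.8 to 33.9 in HS+REC siLonp1. It therefore rose along with the heat conditions, and its part in the results was not tested. In bulk RNA, fewer cells that express a gene and less RNA of it per cell cannot be told apart.

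Per kilobase of exon, the unstressed scramble cells had most DUSP6, followed by DUSP2 and DUSP4. In Ctrl scramble the level per kilobase was 25 ± 1.3 CPM for DUSP6, 15.3 ± 1.31 for DUSP2, 13.8 ± 0.409 for DUSP4 and 9.72 ± 0.312 for DUSP14 (SD, n = 3). DUSP7 (6.27 ± 0.443), DUSP5 (4.49 ± 0.307), DUSP1 (3.3 ± 0.275) and DUSP16 (2.72 ± 0.187) came next, and DUSP8 (0.473 ± 0.0682) and DUSP10 (0.0786 ± 0.00858) were the lowest. Among neighbours in this order, DUSP2 and DUSP4 did not differ beyond their spread. After HS the scramble cells had DUSP1 at 35.4 ± 3.42 CPM per kilobase, level with DUSP2 (37.1 ± 0.852) within the spread and below DUSP6 (46.4 ± 2.81). In HS siLonp1, DUSP5 reached 36.2 ± 1.63 CPM per kilobase, above DUSP4 (25.1 ± 1.11).

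By the GENCODE annotation of hg38 the members are protein-coding genes at chr5:172768096-172771195 (DUSP1, ENSG00000120129.6, minus strand), chr2:96143169-96145440 (DUSP2, ENSG00000158050.5, minus), chr10:110497907-110511533 (DUSP5, ENSG00000138166.6, plus) and chr12:89347235-89352501 (DUSP6, ENSG00000139318.8, minus). DUSP7 is at chr3:52048919-52056571 (ENSG00000164086.10, minus), DUSP8 at chr11:1554051-1572271 (ENSG00000184545.11, minus), DUSP10 at chr1:221701424-221742089 (ENSG00000143507.18, minus), DUSP14 at chr17:37489891-37513501 (ENSG00000276023.5, plus) and DUSP16 at chr12:12473282-12562863 (ENSG00000111266.9, minus). DUSP4 is ENSG00000120875.9. The counts are of whole genes, so exons and transcript forms are not separated.

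The 250 bases before the start of transcription are shown for the promoters of DUSP1, DUSP2 and DUSP6, which rose in heat, and of DUSP8, which did not, so that they can be read side by side. The sequences are from RefSeq on GRCh38.p14, which had 8 of the 9 members looked up, and run 5′ to 3′ on the strand of the gene. Capitals mark a full cyclic AMP response element (CRE, TGACGTCA) or a TATA box (TATAAA).
DUSP1: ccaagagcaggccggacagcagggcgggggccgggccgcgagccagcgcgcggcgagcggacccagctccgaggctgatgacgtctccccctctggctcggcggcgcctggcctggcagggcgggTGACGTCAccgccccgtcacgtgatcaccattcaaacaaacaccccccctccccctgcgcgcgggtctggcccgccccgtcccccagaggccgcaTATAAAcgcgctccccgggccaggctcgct
DUSP2: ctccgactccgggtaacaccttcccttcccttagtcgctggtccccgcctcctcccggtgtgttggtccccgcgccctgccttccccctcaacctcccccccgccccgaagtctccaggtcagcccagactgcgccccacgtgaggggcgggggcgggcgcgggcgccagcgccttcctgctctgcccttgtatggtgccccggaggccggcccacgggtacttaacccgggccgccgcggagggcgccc
DUSP6: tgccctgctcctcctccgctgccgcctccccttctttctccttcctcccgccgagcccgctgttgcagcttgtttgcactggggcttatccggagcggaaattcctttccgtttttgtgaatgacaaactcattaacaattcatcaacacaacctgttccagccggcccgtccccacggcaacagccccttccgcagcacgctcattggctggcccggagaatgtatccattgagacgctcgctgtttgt
DUSP8: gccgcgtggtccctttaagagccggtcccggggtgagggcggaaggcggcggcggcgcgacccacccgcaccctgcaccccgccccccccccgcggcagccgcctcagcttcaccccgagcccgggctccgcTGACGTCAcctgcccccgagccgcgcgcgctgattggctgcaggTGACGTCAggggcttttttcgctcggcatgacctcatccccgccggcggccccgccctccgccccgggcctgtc

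Both strands of the same window were searched for 8 short patterns in 8 members: DUSP1, DUSP2, DUSP6, DUSP7, DUSP8, DUSP10, DUSP14 and DUSP16. The windows printed are chr5:172771196-172771445 for DUSP1, chr2:96145441-96145690 for DUSP2, chr12:89352502-89352751 for DUSP6 and chr11:1572272-1572521 for DUSP8, all on the minus strand. The full CRE was in DUSP1, from -125 to -118 counted back from the transcription start, and in DUSP8 at -118 to -111 and again at -74 to -67. It was in 2 of the 8 members searched, and in 1.65% of all 35116 promoters of the same length. Its core TGACG, which lies inside the full site, was in the same 2 members and in 21.2% of all promoters. DUSP1 also had the core outside the full site, at -172 to -168 and at -111 to -107. The TATA box was in DUSP1 alone of the 8, at -30 to -25, and in 10.7% of all promoters. None of these 8 had a match to the heat shock elements GAANNTTC (5.78% of all promoters) or TTCNNGAA (6.62%), to the AP-1 site TGANTCA (6.57%) or to the CArG box (1.16%), which says only that these letters are not in these 250 bases. The GC box GGGCGG was in 7 of the 8, DUSP6 being without it, and in 42.6% of all promoters. Apart from the core inside the CRE, the matches in the members do not overlap. The promoter of DUSP6 had a GC content of 57.2%, against 74.4% in DUSP1, 74% in DUSP2 and 76.8% in DUSP8.

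The HS comparison asks which phosphatase mRNAs had changed at the end of 1 h at 42 °C. In scramble cells the nuclear inducible genes and DUSP6 were higher, DUSP1 by 10.7-fold, while DUSP7 was lower and DUSP14 did not pass. Of the 10 members, 7 rose and 1 fell in scramble, at an adjusted p of at most 0.05 by edgeR's quasi-likelihood test with Benjamini-Hochberg adjustment over all genes tested, whereas 36% of all genes passed in either direction and 18.6% rose. With siLonp1, 6 members rose and 2 fell, while 42.2% of all genes passed and 20.2% rose. Their median log2 fold change was 0.67 in scramble and 0.46 in siLonp1, beside -0.01 and 0 over all genes. Rises above 2-fold were seen for DUSP1, DUSP2, DUSP5 and DUSP10 in both arms, 4 of 10 members, where 2.94% of genes in scramble and 3.42% in siLonp1 did so. DUSP10 passed the filter on low counts only through 3 HS+REC libraries. Without it, 6 of the 9 others rose and 1 fell in scramble, and 5 rose and 2 fell in siLonp1, with medians of 0.44 and 0.32, and 3 of the 9 rose above 2-fold in each arm.

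Recovery asks which changes remained after 1 h back at 37 °C. From HS to HS+REC, DUSP1, DUSP2, DUSP4, DUSP5, DUSP6 and DUSP16 fell. These are 6 of 10 in each arm, while 26.8% of all genes in scramble and 31.9% in siLonp1 passed in either direction and 12.7% and 15.6% fell. The other 4 did not pass, and of these DUSP10 alone had an unadjusted p under 0.05, for a higher value. Against Ctrl, 2 members were higher and 4 lower in HS+REC scramble, with 42.3% of all genes called, and 3 were higher and 3 lower in HS+REC siLonp1, with 51.2% called. The medians against Ctrl were 0.03 and -0.03. Without DUSP10, whose reads passed the filter through HS+REC libraries, 1 of the 9 others was higher and 4 were lower in scramble (median 0.02), and 2 were higher and 3 lower in siLonp1 (median -0.10). The HS libraries enter both HS against Ctrl and HS+REC against HS, so the rise and the fall of a gene are not separate observations.

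**Figure D1:**
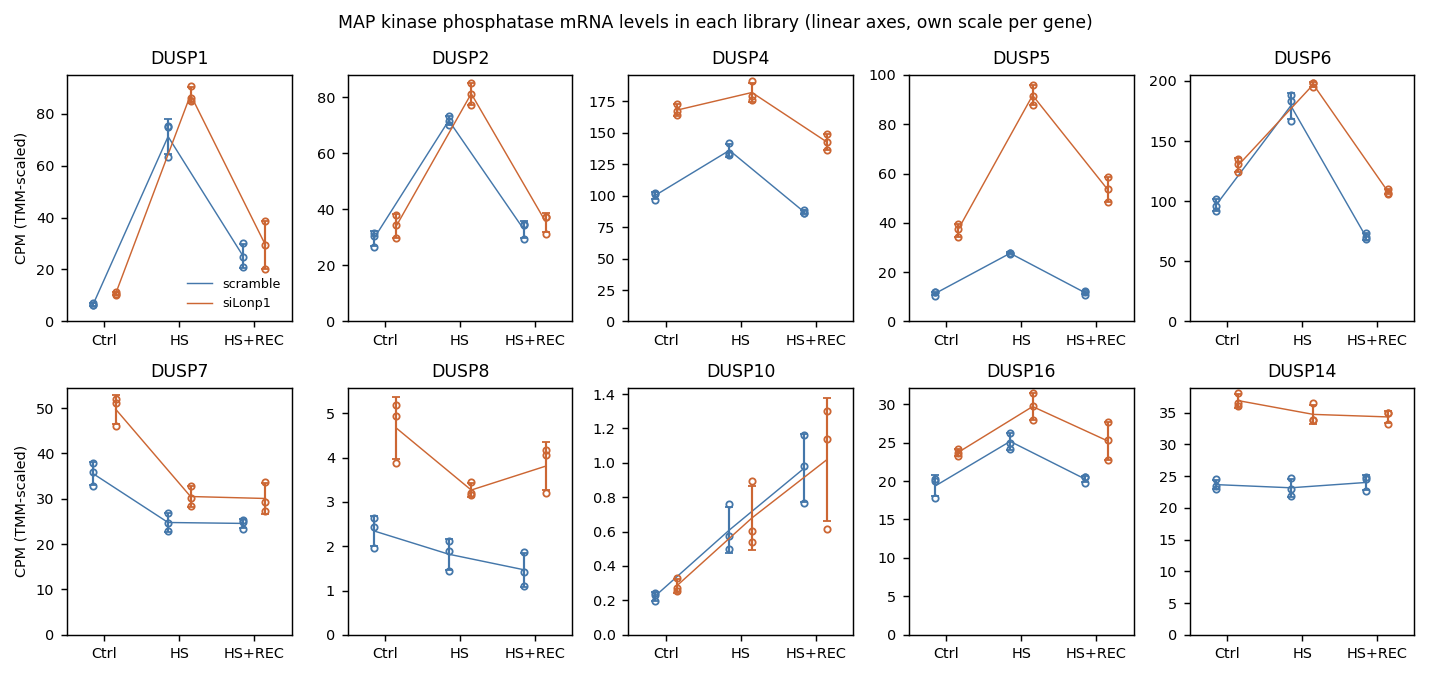
Level of each phosphatase mRNA in CPM (linear axes from 0, a separate scale for each gene) in Ctrl, HS and HS+REC, with scramble in blue and siLonp1 in orange. Open circles are the 3 libraries, and lines and bars are their mean and SD. DUSP1 peaks in HS at 71.2 and 87.3 CPM, DUSP5 lies higher with siLonp1 in each condition, and DUSP14 stays between 21.8 and 24.8 CPM in scramble.

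DUSP1, a nuclear phosphatase of p38 and JNK as well as ERK, had the largest change by HS among the members. It was at 7.27, 6.33 and 6.29 CPM in Ctrl scramble, at 63.2, 74.9 and 75.4 in HS scramble, and at 20.9, 24.7 and 30.1 in HS+REC scramble. The corresponding siLonp1 libraries had 11.3, 10.6 and 10.2 CPM in Ctrl, 85, 90.8 and 86 in HS, and 38.5, 29.5 and 20.3 in HS+REC. In each arm the HS libraries stood above all others and the HS+REC libraries lay between HS and Ctrl, with no overlap. The log2 fold change by HS was 3.42 (SE 0.16, adjusted p = 5.2e-14, edgeR) in scramble and 3.03 (SE 0.16, adjusted p = 2.1e-13) in siLonp1. In recovery DUSP1 then fell, with log2 fold changes of -1.49 (scramble, SE 0.14) and -1.57 (siLonp1, SE 0.14), which left it 3.81-fold above Ctrl in scramble and 2.76-fold above Ctrl in siLonp1.

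DUSP2, a nuclear phosphatase best known from activated lymphocytes, rose with HS and fell again in recovery. The scramble libraries had 31.4, 30.6 and 26.7 CPM in Ctrl, 70.1, 71.4 and 73.4 in HS and 34.9, 29.3 and 34.4 in HS+REC. With siLonp1 they had 38, 29.7 and 34.5 CPM in Ctrl, 85.1, 81.2 and 77.3 in HS and 37.1, 31.2 and 37.4 in HS+REC. Every HS library was above every other library of its arm, while Ctrl and HS+REC overlapped. HS raised DUSP2 by 2.42-fold in scramble (log2 1.27, SE 0.09, adjusted p = 5.6e-11) and 2.38-fold in siLonp1 (log2 1.25, SE 0.09, adjusted p = 4.9e-11), both by edgeR. HS+REC against Ctrl was 0.15 (95% interval -0.03 to 0.34) in scramble and 0.05 (-0.14 to 0.23) in siLonp1 on the log2 scale, and neither passed.

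DUSP4, a nuclear phosphatase of ERK and JNK, was already abundant before heat and moved less. It stood at 102, 101 and 96.7 CPM in Ctrl scramble, 134, 142 and 132 in HS scramble and 88.4, 86.1 and 86.2 in HS+REC scramble. In siLonp1 it stood at 173, 167 and 164 CPM in Ctrl, 179, 191 and 176 in HS and 136, 143 and 149 in HS+REC. The 3 conditions did not overlap in either arm, and each siLonp1 group lay above the scramble group of its condition. HS raised it by 1.36-fold in scramble (log2 0.44, SE 0.05, edgeR adjusted p = 7.8e-07), whereas the siLonp1 value of 0.12 (SE 0.05) did not pass (adjusted p = 0.075), though it did with CPM above 1 in all 18 libraries (0.14, adjusted p = 0.034) and with DESeq2 (0.12, adjusted p = 0.046). After recovery DUSP4 was below its Ctrl level in both arms, by log2 -0.20 (SE 0.05) in scramble and -0.23 (SE 0.05) in siLonp1.

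DUSP5, a nuclear phosphatase specific for ERK, rose with HS and was higher with siLonp1 in all conditions. Scramble libraries had 11.8, 11.8 and 10.5 CPM in Ctrl, 27.9, 27.8 and 27.3 in HS and 10.9, 12.3 and 11.8 in HS+REC. The siLonp1 libraries had 39.5, 34.1 and 37.4 CPM in Ctrl, 95.9, 91.6 and 87.7 in HS and 58.6, 53.8 and 48.4 in HS+REC. Unstressed siLonp1 libraries thus lay above heat-shocked scramble libraries, with no overlap. The HS effect was 2.43-fold in scramble (log2 1.28, SE 0.08, edgeR adjusted p = 7.2e-12) and 2.48-fold in siLonp1 (log2 1.31, SE 0.07, adjusted p = 7.5e-13). After recovery DUSP5 overlapped its Ctrl level in scramble (log2 0.04, SE 0.08), but was still 1.45-fold above Ctrl in siLonp1 (log2 0.54, SE 0.07, adjusted p = 1.4e-06).

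DUSP6, the cytoplasmic ERK phosphatase often read as a gauge of ERK activity, rose with HS and then went below its starting level. Its scramble libraries had 102, 96.1 and 91.8 CPM in Ctrl, 188, 183 and 167 in HS and 70.4, 73.7 and 68.2 in HS+REC. Its siLonp1 libraries had 124, 131 and 135 CPM in Ctrl, 198, 198 and 195 in HS and 107, 106 and 110 in HS+REC. The 3 conditions did not overlap in either arm. HS raised it by 1.86-fold in scramble (log2 0.89, SE 0.06, edgeR adjusted p = 1.7e-11) and 1.51-fold in siLonp1 (log2 0.60, SE 0.06, adjusted p = 9.8e-09). HS+REC was below Ctrl by log2 -0.45 (SE 0.06, adjusted p = 1.1e-06) in scramble and -0.27 (SE 0.06, adjusted p = 0.00048) in siLonp1.

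DUSP7, the other cytoplasmic ERK phosphatase, went the opposite way. It had 37.8, 36 and 32.8 CPM in Ctrl scramble, 24.7, 26.8 and 22.8 in HS scramble and 25.4, 24.9 and 23.4 in HS+REC scramble. With siLonp1 it had 51.2, 52 and 46.1 CPM in Ctrl, 28.5, 32.9 and 30.1 in HS and 29.3, 27.2 and 33.7 in HS+REC. All heated libraries were below the Ctrl libraries of their arm, and HS and HS+REC overlapped. It fell with HS, by log2 fold changes of -0.52 (SE 0.08, edgeR adjusted p = 2.8e-05) in scramble and -0.71 (SE 0.08, adjusted p = 1.8e-07) in siLonp1, and from HS to HS+REC the value was -0.02 (95% interval -0.19 to 0.16) in scramble and -0.02 (-0.19 to 0.15) in siLonp1.

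Among the JNK and p38 phosphatases, DUSP16 rose a little with HS, DUSP10 rose from near 0, and DUSP8 was lower in some of the heat comparisons. DUSP16 had 17.8 to 20.3 CPM in Ctrl scramble, 24.2 to 26.3 in HS scramble and 19.8 to 20.5 in HS+REC scramble. The siLonp1 ranges were 23.3 to 24.2 CPM in Ctrl, 27.9 to 31.4 in HS and 22.7 to 27.7 in HS+REC. HS was above Ctrl with no overlap in each arm, by log2 0.38 (SE 0.07, edgeR adjusted p = 0.00031) in scramble and 0.32 (SE 0.07, adjusted p = 0.001) in siLonp1. The fall of DUSP16 from HS to HS+REC in siLonp1 (log2 -0.23, SE 0.07, adjusted p = 0.017) did not pass without HS siLonp1 replicate 2 or without HS+REC siLonp1 replicate 3, nor with only the groups compared (-0.22, adjusted p = 0.064).

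DUSP8, a phosphatase most studied in brain and heart, was low throughout. It had 2.63, 2.44 and 1.97 CPM in Ctrl scramble, 1.44, 1.9 and 2.12 in HS scramble and 1.42, 1.11 and 1.88 in HS+REC scramble. With siLonp1 it had 5.19, 4.94 and 3.88 CPM in Ctrl, 3.45, 3.16 and 3.2 in HS and 4.17, 4.07 and 3.2 in HS+REC. Ctrl and HS overlapped in scramble and did not in siLonp1. HS against Ctrl was -0.38 (SE 0.18, edgeR adjusted p = 0.11) in scramble and -0.52 (SE 0.16, adjusted p = 0.011) in siLonp1 on the log2 scale, and the second did not pass without Ctrl siLonp1 replicate 1 (-0.43, adjusted p = 0.062). The difference between the arms in this HS effect was -0.13 (95% interval -0.64 to 0.37), which did not pass. HS+REC against Ctrl was -0.66 (SE 0.19, edgeR adjusted p = 0.0061) in scramble, with no overlap, and -0.29 (SE 0.16, adjusted p = 0.12) in siLonp1. The siLonp1 value passed with library size only (-0.37, adjusted p = 0.045) and without Ctrl siLonp1 replicate 3 (-0.41, adjusted p = 0.047).

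DUSP10, a stress-responsive phosphatase of JNK and p38, was nearly silent at 37 °C. It had 0.195, 0.231 and 0.24 CPM in Ctrl scramble (8 to 11 counts), 0.496, 0.574 and 0.759 in HS scramble and 0.767, 1.16 and 0.981 in HS+REC scramble. In siLonp1 it had 0.254, 0.272 and 0.332 CPM in Ctrl, 0.54, 0.894 and 0.604 in HS and 1.14, 1.3 and 0.614 in HS+REC. The Ctrl libraries were below all heated ones in each arm, and HS and HS+REC overlapped in siLonp1. The HS effect was 1.41 (SE 0.35, edgeR adjusted p = 0.0031) in scramble and 1.24 (SE 0.34, adjusted p = 0.0046) in siLonp1 on the log2 scale. Its mean was highest in HS+REC, the condition through which it passed the filter on low counts, and HS+REC against HS did not pass in scramble (0.69, SE 0.27, adjusted p = 0.056) or in siLonp1 (0.59, SE 0.26, adjusted p = 0.092). With a library left out, this comparison passed in 2 of 5 fits in scramble and in 2 of 4 in siLonp1. In scramble it also passed with the replicate number as a block (0.70, adjusted p = 0.047). The summed markers of other cell types, given above, followed the same order of conditions.

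DUSP14, the atypical member, moved little across conditions. It had 23 to 24.5 CPM in Ctrl scramble, 21.8 to 24.7 in HS scramble and 22.7 to 24.8 in HS+REC scramble, and 36 to 38.1, 33.8 to 36.5 and 33.2 to 34.9 CPM in the siLonp1 groups in the same order. HS against Ctrl was -0.04 (95% interval -0.17 to 0.10) in scramble and -0.09 (-0.22 to 0.04) in siLonp1 on the log2 scale. None of its heat or recovery comparisons passed. HS+REC siLonp1 lay below Ctrl siLonp1 with no overlap (log2 -0.10, SE 0.06, edgeR adjusted p = 0.18), a value that passed with library size only (-0.18, adjusted p = 0.016), and the scramble and siLonp1 ranges lay apart in each condition.

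**Figure D2:**
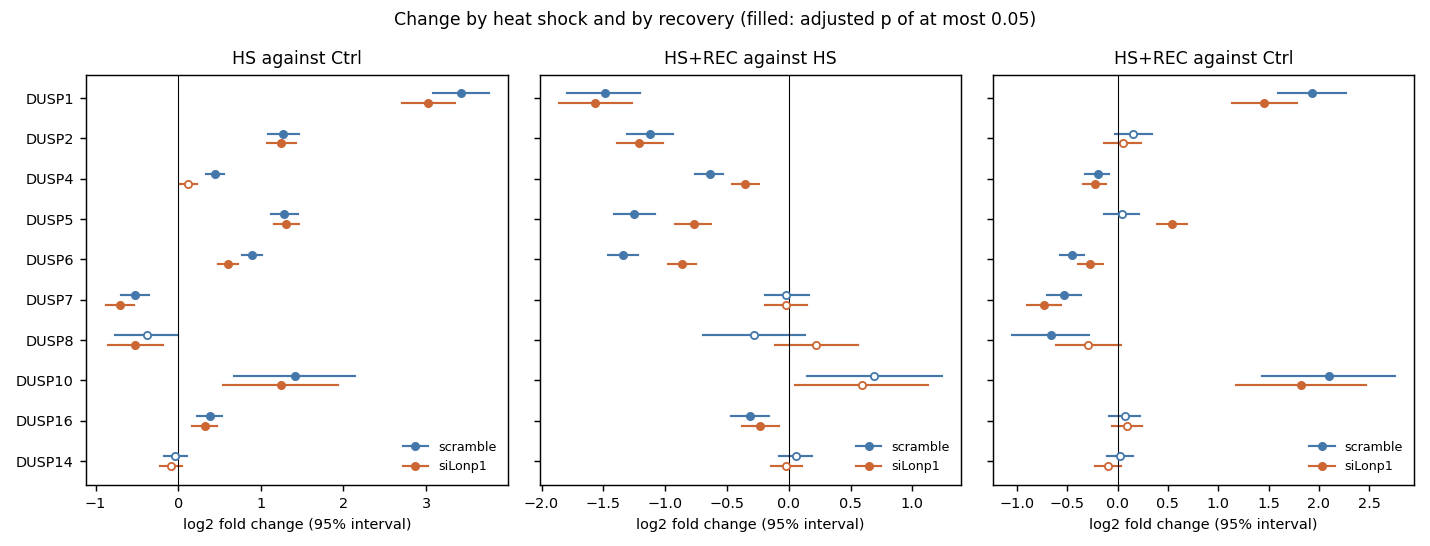
Log2 fold change of each member in HS against Ctrl, HS+REC against HS and HS+REC against Ctrl, in scramble (blue) and siLonp1 (orange). Points are edgeR estimates with 95% intervals and are filled where the adjusted p was at most 0.05. DUSP1 is farthest right in HS against Ctrl at 3.42 and 3.03, and DUSP7 lies left of 0 in both arms.

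The siLonp1 comparison asks what Lonp1 silencing changed at each temperature. At 37 °C, 8 of the 10 members were higher with siLonp1, the largest change being that of DUSP5 at 3.25-fold. The share of all genes called was 49.2% in either direction and 26.3% in the higher direction. In HS 7 members were higher (54.8% of all genes called, 28.1% higher), and in HS+REC also 7 (54.1% called, 26.8% higher). The values of the members that did not pass were above 0 as well in all conditions. The members had a median log2 fold change of 0.56 at 37 °C, 0.30 after HS and 0.42 after recovery, beside 0.01, 0 and 0 over all genes. Only DUSP5 in all conditions, and DUSP8 in HS+REC, were above 2-fold, while 2.63%, 2.56% and 2.84% of all genes rose that far in Ctrl, HS and HS+REC. With library size in place of TMM scaling, the count in HS was 4 and not 7, since the calls of DUSP6, DUSP7 and DUSP16 were lost.

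DUSP4, DUSP5, DUSP6, DUSP7, DUSP8, DUSP14 and DUSP16, which span all the roles, were each higher with siLonp1 in every condition, with no overlap of libraries. The share of all genes whose libraries separated in this way was not computed, so whether such separation was unusual was not tested. DUSP5 was 3.25-fold higher in Ctrl (log2 1.70, SE 0.08, edgeR adjusted p = 7e-14), 3.31-fold in HS (1.73, SE 0.07, adjusted p = 1.4e-14) and 4.6-fold in HS+REC (2.20, SE 0.08, adjusted p = 1.4e-15). DUSP4 was 1.67-fold higher in Ctrl (log2 0.74, SE 0.05), 1.34-fold in HS (0.43, SE 0.05) and 1.64-fold in HS+REC (0.72, SE 0.05). DUSP6 was higher by log2 0.43 (SE 0.06) in Ctrl and 0.61 (SE 0.06) in HS+REC, but in HS the value was 0.14 (SE 0.06, adjusted p = 0.049), a call that was lost in 6 of 8 alternative analyses and in 5 of 6 fits with a library left out. DUSP7 was higher by 0.49 (SE 0.08) in Ctrl, 0.30 (SE 0.08) in HS and 0.29 (SE 0.08) in HS+REC, and the last did not pass without HS+REC siLonp1 replicate 3.

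DUSP1, which had the largest rise by HS, passed with siLonp1 in Ctrl, and DUSP2 did not pass in any condition. DUSP1 was 1.61-fold higher in Ctrl (log2 0.69, SE 0.17, edgeR adjusted p = 0.002), while HS (0.29, SE 0.14, adjusted p = 0.072) and HS+REC (0.22, SE 0.15, adjusted p = 0.20) did not pass. In HS it passed with no filter on low counts (0.31, adjusted p = 0.0014) and with only the groups compared (0.29, adjusted p = 0.0048), and in HS+REC with no filter (adjusted p = 0.044). The HS+REC value of DUSP1 turned to -0.03 without HS+REC siLonp1 replicate 1, passed at 0.43 without HS+REC siLonp1 replicate 3 and at 0.37 without HS+REC scramble replicate 3, as its siLonp1 libraries ran from 20.3 to 38.5 CPM. DUSP2 did not pass in Ctrl (0.20, adjusted p = 0.063), HS (0.18, adjusted p = 0.076) or HS+REC (0.10, adjusted p = 0.36), but in Ctrl it passed in 3 of 8 alternative analyses and in HS in 2 of 8.

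Among the JNK and p38 phosphatases, DUSP8 had the largest siLonp1 values, of log2 0.99 (SE 0.16) in Ctrl, 0.86 (SE 0.18) in HS and 1.36 (SE 0.18) in HS+REC, with edgeR adjusted p-values of 2.9e-05, 0.00033 and 1.1e-06. DUSP16 was higher by 0.29 (SE 0.07), 0.24 (SE 0.07) and 0.32 (SE 0.07), and its HS call was lost without HS siLonp1 replicate 2. DUSP10 did not pass in any condition, and its Ctrl value of 0.36 had a 95% interval from -0.50 to 1.22. The atypical DUSP14 was 1.56-fold higher with siLonp1 in Ctrl (log2 0.64, SE 0.06, adjusted p = 2.3e-08), 1.5-fold in HS (0.59, SE 0.06) and 1.43-fold in HS+REC (0.52, SE 0.06).

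**Figure D3:**
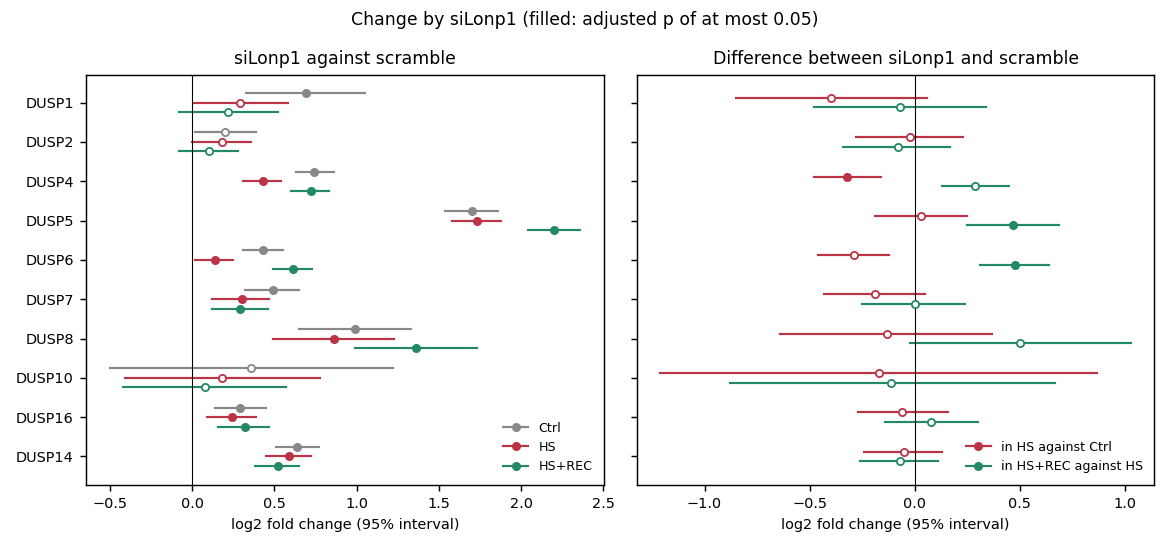
Left, log2 fold change by siLonp1 against scramble in Ctrl (grey), HS (red) and HS+REC (green). Right, the difference between the arms in the HS effect (red) and in the change from HS to HS+REC (green), with 95% intervals throughout and filled points where the adjusted p was at most 0.05. On the left every point lies right of 0, with DUSP5 at 1.70 to 2.20, and on the right DUSP4 is filled in red at -0.32 and DUSP5 and DUSP6 in green at 0.47 and 0.48.

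Whether silencing altered the response to heat was tested by the difference of the effects in the 2 arms. For the HS effect, 1 of 10 members passed, with 1.87% of all genes called: DUSP4 had a smaller rise with siLonp1, by a difference of -0.32 (SE 0.08, edgeR adjusted p = 0.031). It did not pass in 9 of 12 fits with a library left out, in which the value stayed between -0.35 and -0.29. DUSP6 had a difference of -0.29 (SE 0.08) that did not pass (adjusted p = 0.062), but passed in 3 of 8 alternative analyses and in 1 of 12 fits with a library left out, and for DUSP1 it was -0.40 (95% interval -0.85 to 0.06), which passed with only the groups compared (-0.41, adjusted p = 0.036).

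In the change from HS to HS+REC, 2 of 10 members passed, with 1.38% of all genes called. Both fell less with siLonp1 on the log2 scale. In CPM the mean of DUSP5 fell further with siLonp1, from 91.8 to 53.6, than in scramble, from 27.7 to 11.7. DUSP6 had log2 fold changes of -1.34 (scramble) and -0.86 (siLonp1), a difference of 0.48 (SE 0.08, edgeR adjusted p = 0.0026) that passed in all 12 fits with a library left out. DUSP5 had log2 fold changes of -1.25 (scramble) and -0.77 (siLonp1), a difference of 0.47 (SE 0.11, adjusted p = 0.023). It did not pass without HS scramble replicate 1 (0.47, adjusted p = 0.067) or replicate 2 (0.47, 0.06), without HS siLonp1 replicate 3 (0.44, 0.071) or without HS+REC scramble replicate 1 (0.43, 0.059). DUSP4 had a difference of 0.29 (SE 0.08) that did not pass (adjusted p = 0.059), but passed in 4 of 8 alternative analyses (0.30 to 0.32, adjusted p from 0.007 with DESeq2 to 0.047) and in 3 of 12 fits with a library left out. DUSP1 (-0.07) and DUSP2 (-0.08) had none that passed. LONP1 itself was at 20.4, 11.7 and 27.2 CPM in Ctrl, HS and HS+REC siLonp1, with a difference between the arms of -0.76 (SE 0.11) in the HS effect and 1.18 (SE 0.11) from HS to HS+REC, and the part of this in the differences above was not tested.

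Of 15 other dual-specificity phosphatases, 10 were tested. In HS scramble 3 of them passed (36% of all genes did), all lower, namely STYX (log2 -0.29), a catalytically dead relative, DUSP18 (-0.27) and DUSP3 (-0.15), and their median was -0.13. At 37 °C, DUSP19 (-0.51) and DUSP12 (-0.20) were the 2 that passed with siLonp1, both lower, where 49.2% of all genes passed. In siLonp1 cells 4 of the 10 passed with HS, near the 42.2% of all genes: HS raised DUSP22 (0.30) and lowered DUSP18 (-0.52), STYX (-0.30) and DUSP3 (-0.25). None of the 10 passed with a change above 2-fold in any comparison.

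Of the 17 MAP kinases and MAP kinase kinases, 16 were tested, and in HS scramble 1 rose (MAP2K1, 0.18) and 2 fell (MAP2K4, -0.37, and MAPK9, -0.16), while 36% of all genes passed. In HS siLonp1 2 of the 16 rose and 5 fell, where 42.2% of all genes passed. At 37 °C with siLonp1, 9 of the 16 rose (26.3% of all genes did), led by MAPK3, which encodes an ERK (0.88), MAP2K3, a kinase of p38 (0.73), MAPK11, a p38 (0.50), and MAP2K1, a kinase of ERK (0.47). MAPK3 had values of 1.03 in HS and 1.06 in HS+REC, above 2-fold in both.

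Among 12 ERK output and feedback genes, SPRY4, an inhibitor of receptor tyrosine kinase signalling, rose with HS by log2 1.56 in scramble and 1.71 in siLonp1, and fell in recovery (-1.64 and -1.45). In HS scramble 3 of the 12 rose and 2 fell, near the 36% of all genes that passed, the largest fall being that of SPRY1, also a Sprouty inhibitor, at -0.97. At 37 °C with siLonp1, 8 of the 12 rose (26.3% of all genes did), led by the receptor EPHA2 (0.97) and by IER3 and PHLDA1 (0.64 each). From HS to HS+REC, 3 of the 12 had a difference between the arms that passed (1.38% of all genes did), all in the same direction as DUSP5 and DUSP6: EPHA4 (0.62), PHLDA1 (0.35) and SPRY2 (0.31).

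The 11 immediate early transcription factors, which are transcribed within minutes of MAP kinase activity, had larger medians in heat than the phosphatases. In HS scramble 9 rose and 1 fell (36% of all genes passed), with a median log2 fold change of 1.93, and FOS (6.03), EGR2 (4.94), EGR1 (4.86) and EGR3 (3.85) changed most. From HS to HS+REC in scramble 9 fell (12.7% of all genes did), with a median of -1.29, and ATF3 rose (0.47). In siLonp1 9 also fell (15.6% of all genes did), with a median of -1.1, and none was called higher. With siLonp1 at 37 °C, 9 rose (26.3% of all genes did), among them FOSB (1.15) and EGR3 (1.06). In the change from HS to HS+REC, EGR3 fell more with siLonp1 (difference -0.89), the opposite of DUSP5 and DUSP6.

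**Figure D4:**
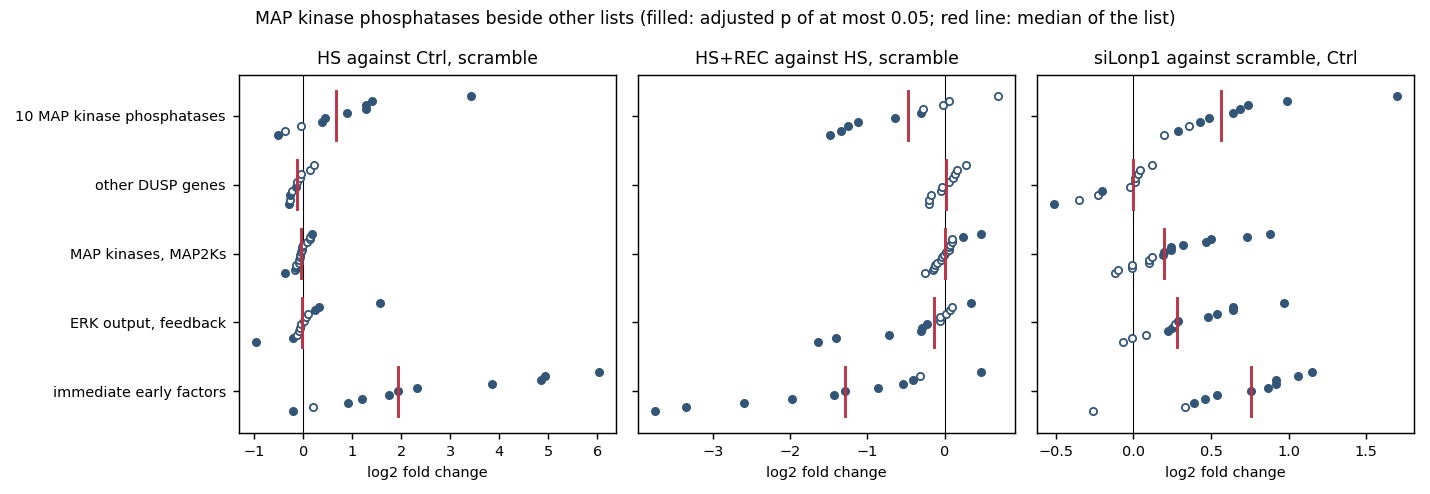
Log2 fold change of the 10 MAP kinase phosphatases and of the tested genes of 4 other lists, in HS against Ctrl and HS+REC against HS of scramble cells and in siLonp1 against scramble at 37 °C. Each point is a gene, filled where the adjusted p was at most 0.05, and the red line is the median. The phosphatases have medians of 0.67, -0.48 and 0.56, the other dual-specificity phosphatases lie near 0 in heat, and the immediate early factors reach 6.03.

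The genes whose pattern was most like each member are given as a description, by Pearson's r of log2 CPM over the 18 libraries, which share their groups and siRNA. For DUSP1 they were EGR2 (0.987), GADD45B (0.986) and IER5 (0.984), and for DUSP2 MED26 (0.977), KLF10 (0.973) and FOXA3 (0.968). DUSP4 was most like SOCS3 (0.977), HIPK3 (0.974) and STK35 (0.972), and DUSP5 was like ZNF2 (0.983) and ATF2 (0.969). DUSP6 followed JUNB (0.966), ZNF440 (0.961) and RNF19A (0.96), whereas DUSP7 followed CD276 (0.976), ARHGAP23 (0.968) and ZBED4 (0.966). The nearest to DUSP8 were PPP1R14B (0.959), ALYREF (0.95) and CADM4 (0.947), to DUSP10 ACTG1P20 (0.959), NXT2 (0.957) and KIAA0895 (0.951), to DUSP14 ARHGDIB (0.983), ZNF853 (0.982) and MEIS3 (0.982), and to DUSP16 DENND5A (0.971), GNA13 (0.952) and NR4A1 (0.949). Between members, r ran from -0.71 for DUSP7 with DUSP10 to 0.92 for DUSP4 with DUSP5, and was 0.87 for DUSP1 with DUSP2.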

How the data were processed

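The deposited file holds raw counts, made by the authors from stranded mRNA libraries (TruSeq) by aligning paired-end reads to hg38 with STAR 2.7.3a and counting UCSC genes with featureCounts. The strand setting, the handling of reads shared by genes and the annotation release are not given in the sources used here. Whether reads of a gene and of an overlapping antisense gene were counted apart is therefore not known. The test took the genes that exceeded 1 CPM in 3 or more libraries (12832 of 26485). It was edgeR 4.0.16's quasi-likelihood test in R 4.3.3, with TMM scaling, a mean for each group in a model of all 18 libraries, and Benjamini-Hochberg adjustment over all genes tested. Calls are at an adjusted p of at most 0.05. Fold changes use a prior count of 0.125, and the SE is the log2 fold change divided by the root of F. Levels per kilobase use the union of exons in GENCODE, and the correlations log2 CPM with a prior count of 2. Replicates of a group differed by more than counting error (chi-square per degree of freedom 3.62 to 27.5), so none was counted as a duplicate. All 10 members are named, with LONP1, the 3 genes most like each member, and from each list at most 4 called genes per comparison with the largest change, of which the text gives a part; 1 gene is not reported here. The comparisons share groups. Members, lists and tests were chosen with earlier results of these data known, and the scripts were tested on simulated data. Alternatives were scaling by RLE or by library size alone, no filter, CPM above 1 in all 18 libraries, DESeq2 1.42.0, the replicate number as a block, only the groups compared, a prior count of 2, and each library left out.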

Additional observations from a re-analysis of the deposited data

Results flagged for a closer look

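In 3 results the effect of a condition differed between the siLonp1 and scramble arms by the test of the difference itself (edgeR, adjusted over all genes tested). The HS effect on DUSP4 was smaller with siLonp1, with a difference of -0.32 on the log2 scale (adjusted p = 0.031). Its libraries rose from 96.7 to 102 CPM up to 132 to 142 CPM in scramble, and from 164 to 173 CPM up to 176 to 191 CPM in siLonp1. From HS to HS+REC, the fall of DUSP5 on the log2 scale was smaller with siLonp1 by 0.47 (adjusted p = 0.023). That of DUSP6 was smaller by 0.48 (adjusted p = 0.0026). Of the 3, DUSP6 alone passed in each fit that left out a library.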

How the results depend on the processing

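Depth limited DUSP10 most, at 8 to 51 counts per library, and DUSP8 next, at 45 to 204. Alternatives were run for the 10 members and for no other gene. The members' calls kept their direction in the alternatives and in the fits with a library left out that gave a value, and some gave none for DUSP10, which then missed the filter on low counts. All 44 changes of sign were of values short of the limit in both fits. Of the 768 values with a library left out, 699 kept their sign and their side of the limit, 23 lost the call and 12 gained it.

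The count of members called by siLonp1 in HS was 4 with library size only and 8 with no filter on low counts or only the groups compared, against 7, and 5 to 7 with a library left out. The count for the difference between arms in the HS effect was 2 with library size only, 3 with only the groups compared and 2 with DESeq2, against 1, and 0 to 2 with a library left out. That for HS to HS+REC was 1 to 3 with a library left out, against 2. Library size only moved the median of all genes by at most -0.10 on the log2 scale. The cause of these changes was not tested.

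The difference between arms from HS to HS+REC for DUSP7 was 0.01 with RLE size factors and DESeq2, 0.02 with library size only or only the groups compared, and 0 with CPM above 1 in all 18 libraries. With library size only, HS+REC against HS in scramble was 0 for DUSP14, HS+REC against Ctrl in scramble was -0.05 for DUSP5, -0.02 for DUSP16 and -0.06 for DUSP14, and HS+REC against Ctrl in siLonp1 was -0.03 for DUSP2.

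With a library left out, the difference between arms from HS to HS+REC ran from -0.32 to 0.13 for DUSP1, from -0.25 to 0.15 for DUSP10 and from -0.09 to 0.06 for DUSP7. That for the HS effect ran from -0.10 to 0 for DUSP16, from -0.11 to 0.06 for DUSP2 and from -0.03 to 0.08 for DUSP5. The siLonp1 effect ran from -0.03 to 0.43 for DUSP1 in HS+REC, and from -0.06 to 0.33 for DUSP10 in HS and likewise in HS+REC. HS against Ctrl of DUSP14 in scramble ran from -0.06 to 0.01. HS+REC against Ctrl ran from 0 to 0.06 for DUSP14 and from -0.02 to 0.08 for DUSP5 in scramble, and from -0.04 to 0.13 for DUSP2 in siLonp1. HS+REC against HS ran from -0.04 to 0.02 for DUSP14 in siLonp1, and for DUSP7 from -0.08 to 0.05 in scramble and from -0.11 to 0.05 in siLonp1.

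Same-numbered libraries did not deviate together (45 correlations of deviations, median -0.022, 10 above 0.1), so the numbers were not taken as pairs. Different-numbered libraries had a median of 0.022 in 90 correlations, with 25 above 0.1. The highest was 0.561, for HS+REC scramble replicate 3 with HS+REC siLonp1 replicate 1. What such libraries shared was not tested. With the replicate number as a block, the siLonp1 effect on DUSP6 in HS was 0.14 and no longer passed (adjusted p = 0.058), while DUSP10 from HS to HS+REC in scramble (0.70, adjusted p = 0.047) and DUSP2 by siLonp1 in Ctrl (0.20, adjusted p = 0.05) passed, and the block changed no other call among the members.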
